A study of Mus musculus with 9 samples.

Results

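A set of 10 genes encoding the PGC-1 coactivators, the PPAR and ERR nuclear receptors, nuclear respiratory factor 1 and mitochondrial transcription factor A was examined in the pressure-loaded right ventricle of the mouse. They were Ppargc1a, Ppargc1b, Ppara, Ppard, Pparg, Esrra, Esrrb, Esrrg, Nrf1 and Tfam. Every probe set whose annotated gene symbol is exactly one of these names was taken, which gave 26 of the 45101 probe sets on the array, or 26 of the 34945 that name a single gene. These are 10 of the 18193 genes measured. One further probe set that names Ppard together with another gene was left out.

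Banding ventricles came from mice in which the pulmonary artery was narrowed, so that the right ventricle pumped against a raised pressure, and sham ventricles came from operated mice without the band. Both groups were wild-type male C57BL6J mice aged 6 to 8 weeks, and the tissue was right ventricular myocardium, with 5 banding arrays and 4 sham arrays. The series is concerned with chemokines and small leucine-rich proteoglycans of the loaded ventricle. How long the band was in place is not stated in the labels. The labels also do not say whether replicates of a group are different animals, so the p-values below measure the spread between these samples, and the number of arrays limits their precision.

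Heart muscle makes most of its ATP in mitochondria and mainly from fatty acids. The PGC-1 proteins do not bind DNA themselves: they dock on nuclear receptors and on factors such as nuclear respiratory factor 1 and raise the transcription of the genes those factors bind. PPARs, paired with a retinoid X receptor, are fatty acid sensors that act on genes of lipid uptake and oxidation, and ERRs are orphan receptors that act on genes of the citric acid cycle and the respiratory chain. Tfam, a nuclear gene, encodes the protein that packages mitochondrial DNA and starts its transcription.

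Of the 10 regulators, 7 were lower in banding than in sham ventricles, none was higher, and 3 did not pass the test. Ppargc1a, Ppargc1b, Ppara, Esrra, Esrrb, Esrrg and Tfam fell, and Ppard, Pparg and Nrf1 did not pass. Each gene was read at its brightest probe set, and a gene was called where limma's adjusted p over all 34945 probe sets was under 0.05. Of all 18193 genes 37.4% were called, 19.4% lower and 17.9% higher. Among the 11013 genes that were not dim in both groups, which include all 10 regulators, 60.4% were called, 31.4% lower and 29% higher. A group was called dim where its mean lay under 4.198 on the log2 scale, 2 units above the lowest value on the arrays. The median difference, banding minus sham, was -0.83 log2 units over the 10 regulators and 0 over all genes.

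In all 7 lower genes every banding array lay below every sham array, a separation seen in 19.3% of all genes. Among the 11013 genes not dim in both groups it was seen in 3408. At the level of probe sets, 15 of the 26 were lower and none was higher, beside 16.1% lower and 15.3% higher among all probe sets (31.4% in either direction). In 14 of the 26 the groups did not overlap, beside 15.8% of all probe sets with banding wholly below sham. Of the 26 probe sets, 7 were dim in both groups, and one of these, an Esrrb probe set, was among the 15. Of the 19 not dim in both groups, 14 were lower and 14 did not overlap. Among all 18919 probe sets not dim in both groups, 5452 were lower and 5170 higher, and in 5288 banding lay wholly below sham. Another pair, the second probe sets of Esrra and Esrrg, cleared the dim level in sham ventricles alone, and neither passed the test.

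**Figure D1:**
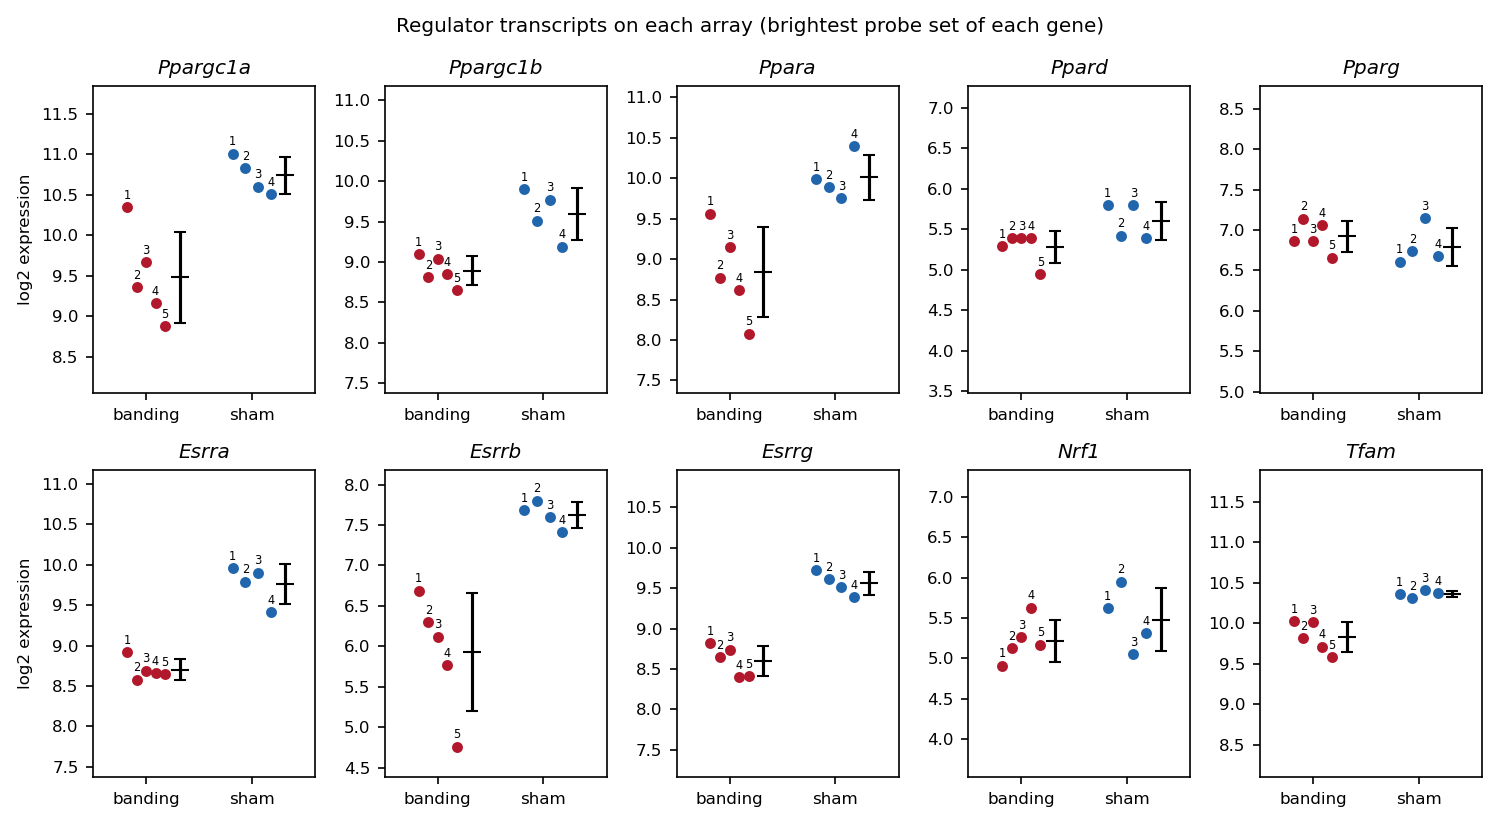
Log2 expression (vertical axes, each spanning the same number of units) of the 10 regulators at their brightest probe set on every array. Numbered points are arrays, red for banding and blue for sham, and the bars are the group mean and SD (n = 5 and n = 4). The red points lie wholly below the blue points for Ppargc1a, Ppargc1b, Ppara, Esrra, Esrrb, Esrrg and Tfam, and the groups overlap for Ppard, Pparg and Nrf1.

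The makeup of the samples differed between the groups and bears on each result that follows. The mean of 12 cardiomyocyte markers was 15.13, 14.97, 15.05, 14.95 and 14.95 on the banding arrays, against 15.21, 15.24, 15.26 and 15.25 on the sham arrays (difference -0.23, exact permutation p = 0.0159, adjusted p = 0.025), and 4 of the 12 were lower and none higher in banding. These markers of the labelled tissue were bright on every array. All 6 fibroblast markers were higher in banding, with a mean of 13.26 ± 0.10 in banding and 10.72 ± 0.13 in sham (SD, n = 5 and 4), as were 6 of 7 macrophage, 4 of 6 endothelial and 3 of 4 smooth muscle markers. In a bulk sample, fewer cardiomyocytes and less RNA per cardiomyocyte cannot be told apart. All 13 hepatocyte markers, which do not belong to heart muscle, were lower in banding. Their mean ran from 2.68 to 4.71 on the banding arrays, where only banding 5 exceeded 2.75, and from 8.78 to 12.81 on the sham arrays, where sham 4 was the highest. Albumin (Alb), the most abundant plasma protein and a product of hepatocytes, stood at 14.85 on sham 4, 11.45 to 12.73 on the other sham arrays, 8.51 on banding 5 and 2.34 to 3.31 on the other banding arrays. The Actb control, read at its 3′ end minus its 5′ end as a measure of RNA integrity, gave 0.86 ± 0.03 in banding and 1.06 ± 0.08 in sham (exact permutation p = 0.00794, adjusted p = 0.0146). The same measure at the Gapdh control was -0.15 ± 0.01 in banding and -0.10 ± 0.09 in sham and did not pass (exact permutation p = 0.262, adjusted p = 0.288).

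The lower regulator calls were therefore also read with the cardiomyocyte or the hepatocyte marker mean in the model. Neither marker mean overlapped between the groups, so as a covariate each leaves less of the group difference to test. A call lost in such a fit, here or below, cannot tell tissue makeup from banding. With the cardiomyocyte marker mean as a covariate none of the 26 probe sets passed, and calls over all probe sets fell to 602, against 10960 without it. Expressed relative to the cardiomyocyte marker mean, a comparison added after seeing the data, the same 7 regulators passed and were lower, with differences from -0.30 (Tfam) to -1.47 (Esrrb). On that scale 26951 of all 34945 probe sets were called, against 10960 without it. That scaling moved the median of all genes that were not dim in both groups to 0.21. Only 15.9% of its calls were lower, against 51.3% without it. With the hepatocyte marker mean as a covariate only Esrra passed among the regulators. Without sham 4 and banding 5, the arrays with the most hepatocyte transcript in their groups, 6 of the 7 were still called and Ppara was not. The hepatocyte marker mean still ran from 8.78 to 10.28 on the remaining sham arrays, against 2.68 to 2.75 on the remaining banding arrays. Leaving out these arrays therefore did not remove that difference. Whether the differences in tissue makeup and in the Actb control had a part in the regulators' lower values was not tested beyond these fits.

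Both coactivators were lower in banding. Ppargc1a encodes PGC-1 alpha, the inducible master coactivator of mitochondrial biogenesis (chr5:51454249-52115853, GRCm38.p6). At its brightest probe set, 1460336_at, it measured 10.35, 9.36, 9.67, 9.16 and 8.88 on the banding arrays, against 11.01, 10.83, 10.60 and 10.51 on the sham arrays. The highest banding array, banding 1, lay just below the lowest sham array, and banding 5 was the lowest of all. The means were 9.48 ± 0.56 in banding and 10.74 ± 0.23 in sham (SD, n = 5 and 4), a difference of -1.25 ± 0.29 (SE) or 2.39-fold lower in banding, with limma's adjusted p = 0.0135. All 5 Ppargc1a probe sets passed, with differences from -1.32 to -1.04 and adjusted p-values from 0.00229 to 0.0135, and in each of them the groups did not overlap. With the cardiomyocyte marker mean as a covariate the difference was 0.19 (adjusted p = 1) and with the hepatocyte marker mean -2.22 (adjusted p = 0.239).

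Ppargc1b encodes PGC-1 beta, a coactivator of similar function that is expressed more steadily. It has 1 probe set, 1449945_at, which measured 9.10, 8.81, 9.04, 8.85 and 8.65 on the banding arrays, against 9.90, 9.51, 9.77 and 9.19 on the sham arrays. Sham 4, at 9.19, came closest to the banding arrays, and the groups did not overlap. Ppargc1b was 1.63-fold lower in banding (-0.70 ± 0.16, adjusted p = 0.0125), with means of 8.89 ± 0.18 in banding and 9.59 ± 0.32 in sham. With the hepatocyte marker mean as a covariate it was -1.73 (adjusted p = 0.0645), and with the cardiomyocyte marker mean -0.31 (adjusted p = 0.998).

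Of the 3 PPAR genes only Ppara passed. Ppara encodes PPAR alpha, the form that drives fatty acid oxidation in heart and in liver (chr15:85734910-85806851). Its brightest probe set, 1449051_at, measured 9.56, 8.77, 9.15, 8.62 and 8.08 on the banding arrays, against 9.99, 9.89, 9.75 and 10.40 on the sham arrays. Banding 1 was again the highest of its group and banding 5 the lowest, and sham 4, the array with the most hepatocyte transcript, was the highest of all. Ppara was 2.25-fold lower in banding (-1.17 ± 0.30, adjusted p = 0.0205), with means of 8.84 ± 0.56 in banding and 10.01 ± 0.28 in sham. Its other probe sets differed by -1.30 ± 0.32 (1439675_at, adjusted p = 0.0183) and -1.50 ± 0.26 (1457721_at, adjusted p = 0.0035). At Ppara 1439675_at the call was lost without sham 2 (adjusted p = 0.0517) or sham 4 (adjusted p = 0.0529). At 1457721_at the arrays read 7.36, 6.19, 6.88, 6.39 and 6.10 in banding, against 8.03, 8.12, 7.98 and 8.23 in sham, and sham 4 exceeded the other sham arrays by a small margin. The call at 1449051_at was lost without sham 4 (-1.04, adjusted p = 0.0579), without sham 1 (-1.18, adjusted p = 0.051) and without banding 4 (-1.12, adjusted p = 0.0506). It was -1.20 with the hepatocyte marker mean as a covariate (adjusted p = 0.637) and 0.26 with the cardiomyocyte marker mean (adjusted p = 1).

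The Ppara promoter is shown because it was the only one among those of the regulators to hold any of the motifs searched. RefSeq promoters from 250 bases before to 50 after each start were available for 9 of the 10 regulators, in 16 windows (build GRCm38.p6, read 5′ to 3′ on the gene's strand). Both strands were searched for the ERR element core AAGGTCA, its extended form TCAAGGTCA, which contains the core, the nuclear respiratory factor 1 element GCGCATGCG, and the direct repeat bound by PPAR with its partner, called DR1 and allowed 1 mismatch. The 250 bases before the Ppara start, at chr15:85735526-85735775 on the plus strand, follow with the nuclear respiratory factor 1 element in capitals, matched on both strands and beginning 31 bases before the start.
Ppara promoter: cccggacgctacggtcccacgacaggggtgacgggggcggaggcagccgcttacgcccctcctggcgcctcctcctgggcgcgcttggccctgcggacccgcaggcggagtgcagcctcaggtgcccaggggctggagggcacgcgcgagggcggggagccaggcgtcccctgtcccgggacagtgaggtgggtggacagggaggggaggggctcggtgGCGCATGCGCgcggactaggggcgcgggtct
Of all 32851 promoter windows, 1.75% held this element, 4.72% the ERR core, 0.423% its extended form and 0.554% the DR1 repeat. A match is a stretch of letters and not a measured binding site.

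Ppard encodes PPAR delta, a widely expressed form that also acts on fatty acid oxidation genes. Its brighter probe set, 1439797_at, measured 5.29, 5.39, 5.39, 5.39 and 4.94 on the banding arrays, against 5.80, 5.42, 5.80 and 5.39 on the sham arrays. The groups touched at 5.39, with banding 5 the lowest. The difference of -0.32 ± 0.14 did not pass (adjusted p = 0.13), and its direction was the same in every alternative run. The other Ppard probe set, 1425703_at, lay at or near the lowest value of the arrays throughout (2.20 to 2.23) and carries no information on the level.

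Pparg encodes PPAR gamma, the regulator of fat cell formation and lipid storage. Its only probe set, 1420715_a_at, measured 6.86, 7.14, 6.86, 7.06 and 6.66 on the banding arrays, against 6.61, 6.74, 7.15 and 6.68 on the sham arrays. The groups overlapped almost completely, and sham 3 was the highest array. The means were 6.92 ± 0.19 in banding and 6.79 ± 0.24 in sham, a difference of 0.12 ± 0.14 (adjusted p = 0.593). Its direction turned with the hepatocyte marker mean as a covariate (-0.65). Relative to the cardiomyocyte marker mean Pparg passed as higher (0.35, limma's adjusted p = 0.0392). On that scale the median was 0.21 over all genes not dim in both groups, and 26951 of the 34945 probe sets were called.

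All 3 ERR genes were lower in banding. Esrra encodes ERR alpha, a broad regulator of oxidative phosphorylation genes. At 1460652_at it measured 8.92, 8.58, 8.69, 8.66 and 8.65 on the banding arrays, against 9.96, 9.79, 9.90 and 9.41 on the sham arrays. The banding arrays lay close together, and sham 4 was the lowest sham array but still above them all. Esrra was 2.09-fold lower in banding (-1.06 ± 0.12, adjusted p = 0.00053), with means of 8.70 ± 0.13 in banding and 9.76 ± 0.25 in sham. It was the only regulator called with the hepatocyte marker mean as a covariate (-1.80, adjusted p = 0.0428), and with the cardiomyocyte marker mean it was -0.78 (adjusted p = 0.258). The second Esrra probe set, 1442864_at, lay near the dim level on every array except sham 1, at 5.63, and did not pass (-0.42 ± 0.37, adjusted p = 0.478).

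Esrrb encodes ERR beta, best known for its role in pluripotent and placental cells. It had the largest difference of the 10 regulators at the brightest probe set. At 1436926_at it measured 6.69, 6.30, 6.12, 5.77 and 4.76 on the banding arrays, against 7.68, 7.80, 7.60 and 7.41 on the sham arrays. The banding arrays spread over almost 2 log2 units, with banding 5 far below the others, whereas the sham arrays lay close together. Esrrb was 3.24-fold lower in banding (-1.70 ± 0.37, adjusted p = 0.00955), with means of 5.93 ± 0.73 in banding and 7.62 ± 0.16 in sham. The difference was -1.48 without sham 4 and banding 5 together (adjusted p = 0.00683), -0.25 with the cardiomyocyte marker mean as a covariate (adjusted p = 1) and -3.45 with the hepatocyte marker mean (adjusted p = 0.137). Its other probe sets were dim in both groups, and one of them, 1422986_at, was called at -0.46 ± 0.14 (adjusted p = 0.0445), which gives no fold.

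Esrrg encodes ERR gamma, a form abundant in heart and oxidative muscle. At 1455267_at it measured 8.82, 8.65, 8.74, 8.40 and 8.41 on the banding arrays, against 9.72, 9.61, 9.51 and 9.39 on the sham arrays. Both groups were tight and lay well apart. Esrrg was 1.94-fold lower in banding (-0.96 ± 0.11, adjusted p = 0.00056), with means of 8.60 ± 0.19 in banding and 9.56 ± 0.14 in sham. Its difference was -1.42 with the hepatocyte marker mean (adjusted p = 0.0814) and -0.52 with the cardiomyocyte marker mean as a covariate (adjusted p = 0.324). Of its other probe sets, 1421747_at lay at 2.40 to 2.42 on every array, and 1457896_at did not pass (-0.45 ± 0.25, adjusted p = 0.245).

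**Figure D2:**
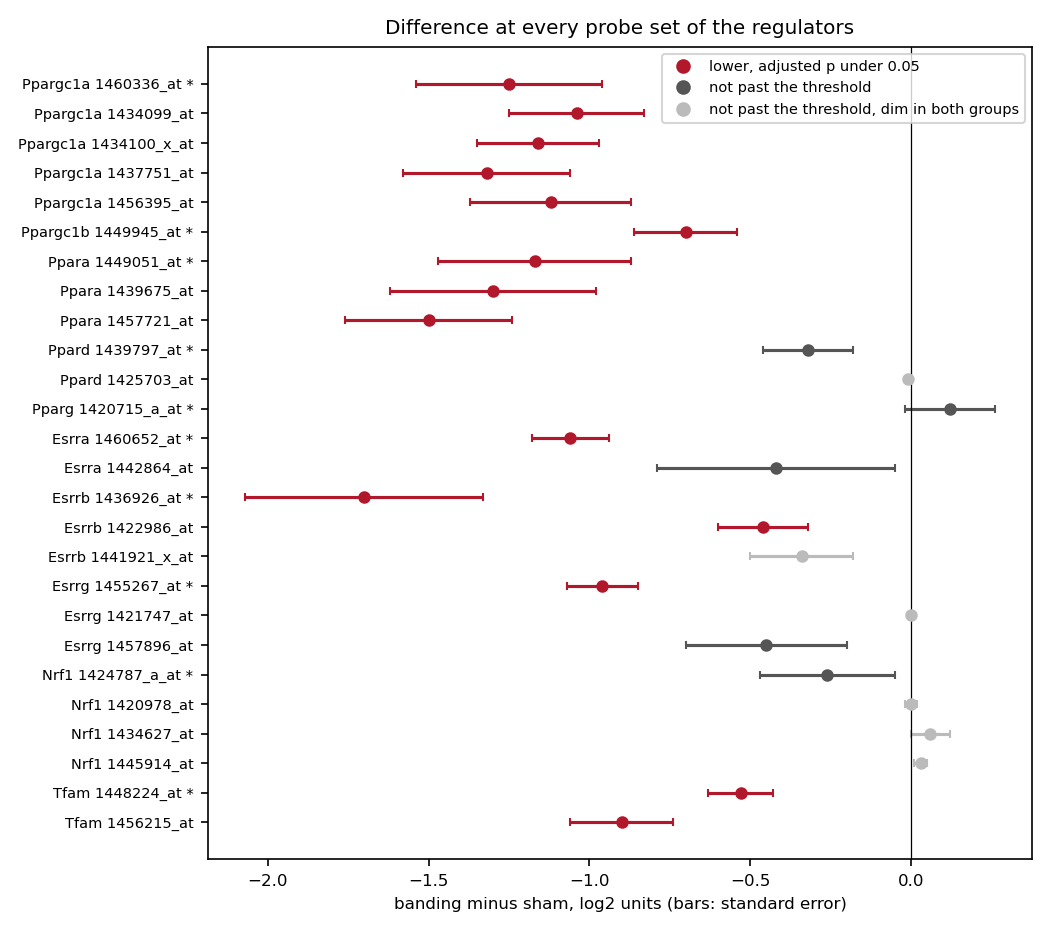
Banding minus sham difference in log2 units (horizontal axis) at each of the 26 probe sets, with bars of 1 standard error from the limma fit (n = 5 and 4). Red marks a lower call, dark grey no call and light grey no call with both groups dim, and an asterisk marks the brightest probe set of a gene. All 5 Ppargc1a and all 3 Ppara probe sets lie below -1, and no probe set was called higher.

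Nuclear respiratory factor 1 and Tfam stand at the end of the pathway that leads from the coactivators to the mitochondrial genome. Nrf1, a DNA-binding factor through which PGC-1 proteins act on nuclear genes of mitochondria, measured 4.91, 5.13, 5.26, 5.63 and 5.17 at 1424787_a_at on the banding arrays, against 5.62, 5.95, 5.05 and 5.31 on the sham arrays. The groups overlapped over most of their range. The difference was -0.26 ± 0.21 (adjusted p = 0.468), and the other 3 Nrf1 probe sets were dim in both groups. Nrf1 was thus read only a little above the dim level, at 1 of its 4 probe sets.

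Tfam measured 10.03, 9.82, 10.01, 9.71 and 9.58 at 1448224_at on the banding arrays, against 10.36, 10.31, 10.41 and 10.37 on the sham arrays. The sham arrays lay within 0.1 log2 units of each other, and every banding array was below them. Tfam was 1.45-fold lower in banding (-0.53 ± 0.10, adjusted p = 0.00434), with means of 9.83 ± 0.19 in banding and 10.36 ± 0.04 in sham. Its second probe set, 1456215_at, measured 6.30, 5.86, 6.37, 6.22 and 5.75 on the banding arrays, against 6.88, 7.19, 7.17 and 6.77 on the sham arrays. The groups did not overlap there either, and the difference was larger (-0.90 ± 0.16, 1.87-fold lower, adjusted p = 0.00404). With the cardiomyocyte marker mean as a covariate the brighter probe set differed by -0.04 (adjusted p = 1), and with the hepatocyte marker mean by -0.84 (adjusted p = 0.191).

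Whether related regulators differed in their response was tested by exact permutation over the 126 ways to split the arrays into 5 and 4, for 8 pairs. The smallest p this test can give, 0.00794, adjusts to 0.0635 over 8 pairs where 1 pair alone reaches it, so a single pair could not pass the threshold and the adjusted values say nothing on whether a pair differed. None of the 8 had an adjusted p under 0.05. Esrrb minus Esrrg differed by -0.74 ± 0.30 log2 units between banding and sham (exact p = 0.0238, adjusted p = 0.0635), and on every banding array Esrrb minus Esrrg was below its value on every sham array. Ppard minus Pparg was likewise separated between the groups (-0.44 ± 0.13, exact p = 0.00794, adjusted p = 0.0635), although neither gene passed on its own. Ppara minus Pparg differed by -1.29 ± 0.35 (adjusted p = 0.0635) and Ppargc1a minus Ppargc1b by -0.55 ± 0.23 (adjusted p = 0.0762). The smallest estimate was that of Esrra minus Esrrg, -0.11 ± 0.10 (adjusted p = 0.381).

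Within the groups the arrays kept a similar order for many of the regulators. Banding 5 was the lowest banding array in 7 of the 10 genes and lay a median of 0.26 below the group mean. Banding 1 was the highest in 7 of the 10, by a median of 0.21. Banding 1 also had the highest cardiomyocyte marker mean of its group (15.13). Among the sham arrays, sham 4 was the lowest in 6 of the 10 and sham 1 the highest in 5, while their cardiomyocyte marker means were 15.25 and 15.21. Ppara departed from this order, with sham 4 its highest sham array.

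**Figure D3:**
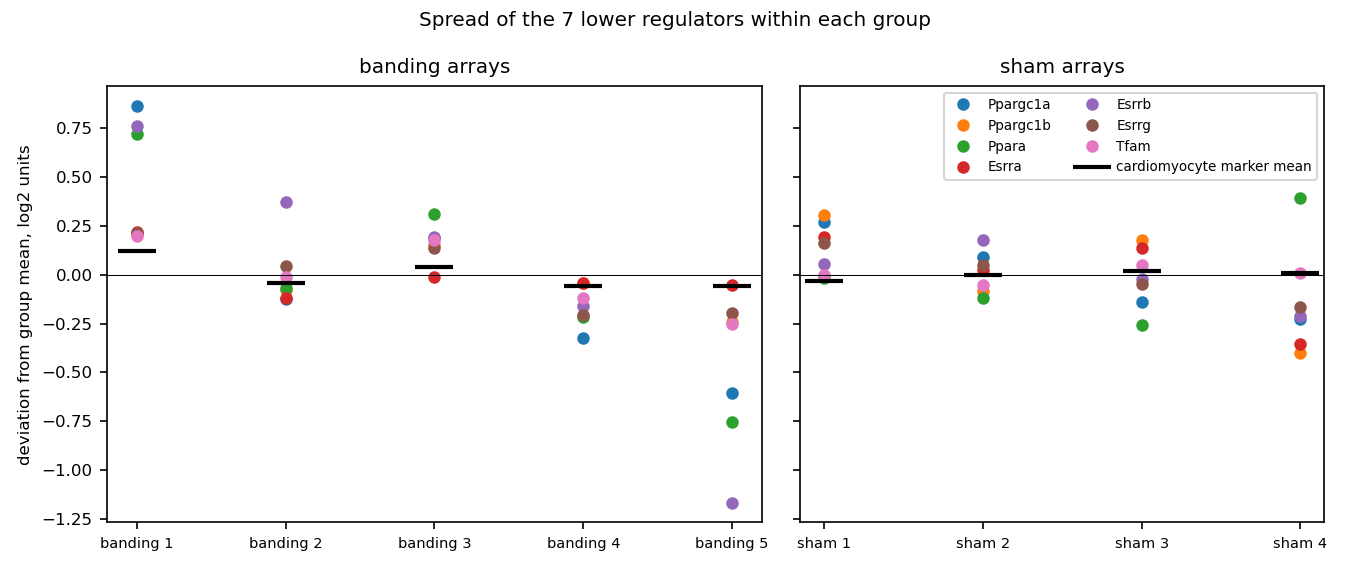
Deviation of each of the 7 lower regulators from its own group mean, in log2 units (vertical axis), on the 5 banding and the 4 sham arrays (horizontal axis). Coloured points are genes at their brightest probe set and black bars the deviation of the cardiomyocyte marker mean. Esrrb, Ppara and Ppargc1a spread most within the banding group, upwards on banding 1 and downwards on banding 5, and on sham 4 Ppara lies above the other genes.

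The partners and cofactors of the regulators were mixed. Of 24 measured, 9 were lower and 3 higher, 12 were not called, and the median difference was -0.13. The 50% called among these genes, none of which was dim in both groups, is below the 60.4% called among all such genes. The retinoid X receptors, with which every PPAR must pair, included Rxra, at 7.83, 7.75, 7.57, 7.63 and 7.56 on the banding arrays, against 8.49, 8.56, 8.48 and 8.46 on the sham arrays (-0.83 ± 0.06, adjusted p = 9.51e-05). Rxrg, the form of heart and skeletal muscle, fell by 1.92 (SE 0.27, adjusted p = 0.00132), and Rxrb did not pass (-0.23, adjusted p = 0.0809). Perm1, a muscle regulator induced by PGC-1 and ERR, was lower at 10.48, 10.06, 10.25, 9.76 and 9.69 in banding, against 11.37, 11.36, 11.13 and 11.13 in sham (-1.20 ± 0.17, adjusted p = 0.00142). Hdac3, the deacetylase of nuclear receptor corepressor complexes, was lower by a smaller amount (-0.48).

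Those that rose were Pprc1, Gabpb2 and Yy1. Pprc1, the third member of the PGC-1 family and a growth-induced one, measured 7.30, 7.61, 7.59, 7.30 and 7.76 on the banding arrays, against 7.07, 7.01, 7.07 and 6.89 on the sham arrays. It was thus higher in banding on every array (0.50 ± 0.11, adjusted p = 0.00837), while both other PGC-1 genes were lower. Gabpb2, a subunit of the GA-binding protein also called nuclear respiratory factor 2, rose by 0.59 (adjusted p = 0.00101), and its DNA-binding subunit Gabpa did not pass (-0.07, adjusted p = 0.498), although the mean of its probe sets did (-0.39, adjusted p = 0.000972). Yy1, a zinc finger factor that can recruit PGC-1 alpha, rose by 0.71 (adjusted p = 0.012). Nrip1, a corepressor of ERR and PPAR targets, lay just outside the threshold (-0.46, adjusted p = 0.0502) and passed without banding 2 (adjusted p = 0.0341) or banding 3 (adjusted p = 0.0331).

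The stretches around the ERR core in the promoters of 3 lower partners are shown, with the core in capitals and 10 bases on either side.
Rxrg, chr1:167618166-167618192, plus strand: tcggggttgaAAGGTCAgctgaaagct
Rxra, chr2:27709233-27709259, plus strand: ggtggcaggaAAGGTCAgtcactctct
Perm1, chr4:156215715-156215741, plus strand, core on the other strand: gaatccggtgTGACCTTagctaatgcc
Among the 21 partners with a promoter window 3 held the core (14.3%), the highest share of the 6 lists, beside 5.38% of all genes with a window. The shares were 9.09% of ERR and PGC-1 targets, 7.14% of upstream regulators, 5.26% of genes of mitochondrial DNA maintenance, 4.17% of PPAR targets, 0 of 13 fat storage genes and 0 of the 9 regulators. The core also stood in the promoters of Prkag2 and Mef2c, upstream regulators that were called higher (0.68 and 0.31). Of the 666 tested genes whose promoter held it, 21.8% were lower and 12.9% higher in banding, beside 20.2% lower and 17.8% higher among all 14452 tested genes with a window. Among genes not dim in both groups, 40.6% of the 347 with the core were lower and 24.5% higher, beside 32% lower and 28.2% higher among all 8952 such genes with a window.

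Target genes of PPARs fell widely. Of 27 measured, 22 were lower and none was higher, 5 were not called, and the median difference was -1.47. Calls made up 81.5% of these genes, all lower, beside 31.4% lower among all genes not dim in both groups. Pdk4, the kinase that shuts pyruvate out of oxidation, measured 11.37, 11.24, 11.86, 12.01 and 12.06 on the banding arrays, against 14.21, 13.13, 13.82 and 13.40 on the sham arrays. The groups lay more than 1 log2 unit apart, and the difference was -1.93 ± 0.28 (3.81-fold lower, adjusted p = 0.00133). Acot1, a thioesterase that splits long-chain acyl-CoA, was 9.04-fold lower in banding, at 5.29, 4.42, 5.09, 6.00 and 5.62 in banding, against 8.92, 8.43, 8.31 and 8.20 in sham (-3.18 ± 0.32, adjusted p = 0.000305). Ucp3, a mitochondrial carrier induced by fatty acids, was dim in banding, at 4.42, 4.34, 5.20, 3.28 and 3.20, against 9.17, 7.02, 8.83 and 7.24 in sham, which makes it at least 12-fold lower (adjusted p = 0.00208).

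Decr1 and Etfdh, of beta-oxidation, were among the PPAR targets with the smallest p-values, as were Acot1, Acot2 and Pex11a. Decr1, which removes double bonds from unsaturated acyl-CoA, was 3.08-fold lower in banding (-1.62 ± 0.15, adjusted p = 0.000204), and Etfdh, which passes electrons from beta-oxidation to ubiquinone, was 3.04-fold lower (-1.60 ± 0.18, adjusted p = 0.000432). Acadm, the medium-chain acyl-CoA dehydrogenase, was 2.13-fold lower (-1.09 ± 0.17, adjusted p = 0.00199). Acot2 and Pex11a, a mitochondrial thioesterase and a peroxisome division protein, fell by 1.86 and 1.94. The 5 that did not pass, named for completeness after their values were seen, were Hadhb (-0.39, adjusted p = 0.0595), Plin2 (-0.15), Cpt1a (-0.06), Cyp4a14 (-0.02, dim in both groups) and Angptl4. Angptl4, a secreted inhibitor of lipoprotein lipase, measured 8.07, 9.28, 8.72, 7.85 and 7.55 in banding, against 9.0, 7.63, 8.82 and 7.32 in sham (0.10 ± 0.50, adjusted p = 1), a wide overlap whose direction turned when single arrays were left out.

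Liver expresses many of the PPAR targets too. Sham 4, which had the highest hepatocyte marker mean, was not the highest sham array for Pdk4, Acot1, Ucp3, Decr1, Etfdh, Acadm, Acot2, Pex11a or Angptl4. That mean was at least 8.78 on every sham array and at most 4.71 on every banding array. What the order among the sham arrays says of the difference between the groups was not tested. Without sham 4 and banding 5 together 22 of the 27 still passed, all lower, but the hepatocyte marker mean still lay far apart between the groups. With either marker mean as a covariate none of the 27 passed. Whether liver transcript had a part in the lower values was not tested.

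Mitochondrial targets of ERR and PGC-1 fell by less but almost throughout. Of 27 measured, 25 were lower, none was higher, and Mdh2 (-0.07, adjusted p = 0.106) and Atp5b did not pass, with a median of -0.55. The 92.6% called, all lower, stand beside 31.4% lower among all genes not dim in both groups. Cs, citrate synthase, which starts the citric acid cycle, measured 14.30, 14.05, 14.21, 14.05 and 14.10 on the banding arrays, against 14.71, 14.73, 14.69 and 14.64 on the sham arrays. The groups did not overlap, and Cs was 1.47-fold lower in banding. Ndufs1, the largest subunit of complex I, fell by 1.12, Ndufa9, another complex I subunit, by 0.53, Fh1, fumarase, by 1.06, and Coq9, needed for ubiquinone synthesis, by 1.27. Cycs, the electron carrier cytochrome c, was 1.31-fold lower (-0.39 ± 0.06, adjusted p = 0.00256). Atp5b, the catalytic subunit of ATP synthase, measured 15.02, 14.87, 14.91, 14.82 and 14.78 in banding, against 15.02, 15.03, 15.04 and 14.98 in sham, and missed the threshold (-0.14, adjusted p = 0.0657) but passed without banding 1 (-0.17, adjusted p = 0.00667). Without sham 4 and banding 5 together 22 of the 27 passed, and with either marker mean as a covariate none did.

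**Figure D4:**
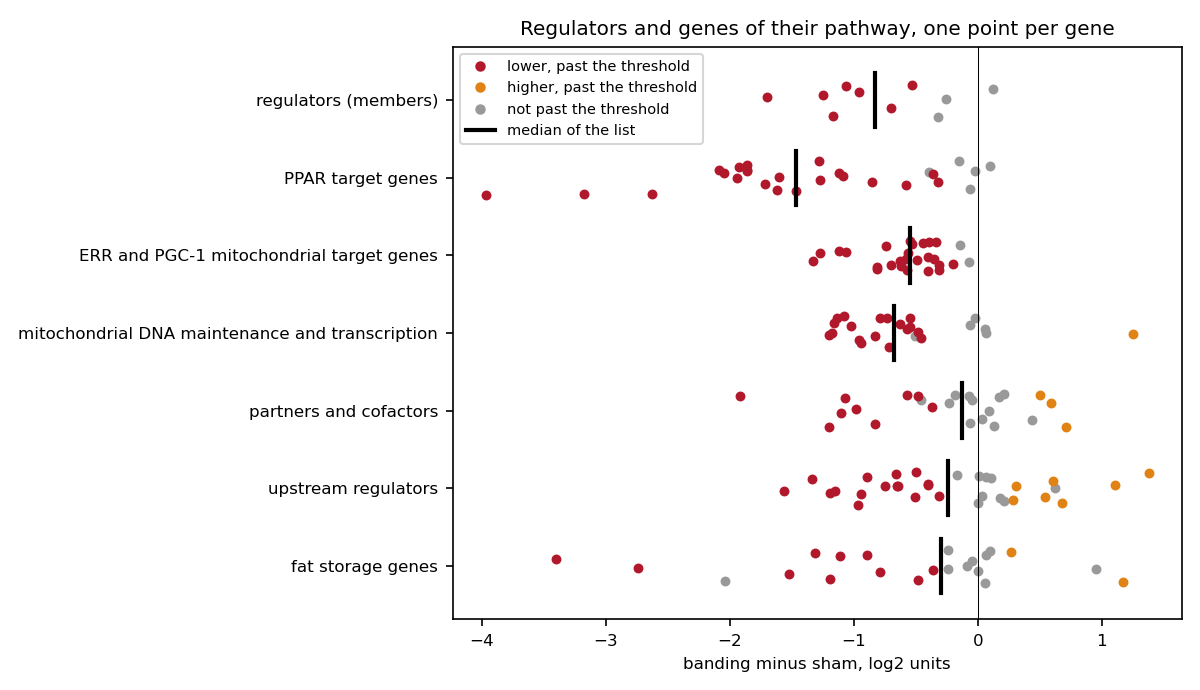
Banding minus sham difference in log2 units (horizontal axis) for the 10 regulators and for each measured gene of 6 lists, with 1 point per gene at its brightest probe set. Red marks a lower call, orange a higher call, grey no call, and the black bar the median of the list. PPAR targets reach furthest to the left, with a median of -1.47, and the partners and upstream regulators spread on both sides of 0.

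The machinery that copies and reads mitochondrial DNA, in which Tfam works, followed the same direction. Of 24 genes 18 were lower and 1 was higher, 5 were not called, and the median was -0.68. The 79.2% called stand beside 60.4% called among all genes not dim in both groups, 31.4% lower and 29% higher. Polrmt, the mitochondrial RNA polymerase, measured 8.93, 8.68, 8.88, 8.49 and 8.58 on the banding arrays, against 9.69, 9.62, 9.76 and 9.54 on the sham arrays (-0.94, 1.92-fold lower, adjusted p = 0.000407). The groups lay apart by more than the spread within either. Tfb2m, the transcription factor that works beside Tfam at the mitochondrial promoters, fell by 0.55 (adjusted p = 0.000849), and Tfb1m, a ribosomal RNA methyltransferase, by 0.96 (adjusted p = 0.00104). Tefm, the elongation factor, fell by 1.14, Polg, the DNA polymerase, by 0.57, and Clpx, the unfoldase of a matrix protease, by 1.08. Fastkd2 and Slirp, which bind mitochondrial RNA, fell by 1.02 (adjusted p = 7.34e-05) and 0.83. Dna2, a nuclease and helicase that also serves nuclear DNA replication, was the one that rose, at 5.13, 5.74, 5.78, 5.25 and 6.14 in banding, against 4.09, 3.97, 4.36 and 5.01 in sham (1.25 ± 0.28, adjusted p = 0.012). Dna2 lay near the dim level in sham ventricles.

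The nuclear respiratory factor 1 element printed above for Ppara also occurred in promoters of these pathway genes, and 7 are shown with the element, on either strand, in capitals and 10 bases on either side.
Tfb2m, chr1:179546246-179546274, minus strand: ctaggtcgttCGCATGCGCcattcgtaat
Etfdh, chr3:79628876-79628905, minus strand: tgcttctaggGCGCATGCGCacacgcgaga
Cycs, chr6:50566612-50566640, minus strand: catgctagctCGCATGCGCgcgcacaaac
Clpx, chr9:65294163-65294191, plus strand: ttagtctccaCGCATGCGCagcgtaaact
Uqcrc1, chr9:108936668-108936697, plus strand: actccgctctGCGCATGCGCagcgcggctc
Opa1, chr16:29579265-29579294, plus strand: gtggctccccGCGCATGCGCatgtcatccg
Dna2, chr10:62947006-62947035, plus strand: ggcgcctgctGCGCATGCGCagcgagctgg
The first 6 genes were lower in banding, with Uqcrc1, a core subunit of complex III, at -0.74 and Opa1, which fuses inner mitochondrial membranes, at -0.81, and Dna2 was higher. Promoters with the element that are not printed were those of Acadm (-1.09) and Ogdh (-0.34), both called lower, and Rxrb (-0.23), which was not called. The element stood in the promoters of 4 of 22 genes with a window among the ERR and PGC-1 targets (18.2%), of 3 of 19 genes of mitochondrial DNA maintenance (15.8%) and of 2 of 24 PPAR targets (8.33%), beside 1.95% of all genes with a window. It stood in 1 of 21 partners (4.76%) and in none of the 28 upstream regulators and 13 fat storage genes with a window. Across all tested genes that carried it, 446 in number, 31.8% were lower and 19.3% higher. Limited to genes not dim in both groups, 38.5% of 369 were lower and 23% higher, beside the same 32% and 28.2%. These shares are descriptions of the letters and of the calls, with no test between them.

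Upstream regulators of the PGC-1 pathway went both ways. Lower calls were made for 16 of the 32 measured and higher calls for 7, and the remaining 9 were not called, with a median of -0.24. Calls made up 71.9% of these genes, and calls in both directions were common among all genes not dim in both groups (31.4% lower and 29% higher). Prkaa2, the catalytic subunit of the energy sensor AMPK that predominates in heart, measured 11.19, 10.95, 11.08, 10.97 and 10.96 on the banding arrays, against 11.99, 12.03, 11.83 and 12.14 on the sham arrays (-0.97 ± 0.07, 1.96-fold lower, adjusted p = 0.00011). Its counterpart Prkaa1, the more widely expressed catalytic subunit, rose by 0.61 (adjusted p = 0.0174), and the regulatory subunit Prkag2 by 0.68 (adjusted p = 0.00332). Sirt3, the mitochondrial deacetylase, measured 9.0, 8.87, 8.76, 8.91 and 8.85 in banding, against 9.90, 9.86, 9.92 and 9.57 in sham (-0.94, adjusted p = 0.000172). Sirt1, which deacetylates PGC-1 alpha, overlapped almost fully between the groups (0, adjusted p = 1). Nampt, the enzyme that salvages NAD for sirtuins, fell by 1.56, and Mtor, the growth kinase, by 0.65.

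Of the transcription factors upstream, Hif1a, the oxygen-sensing factor, had the largest rise. It measured 12.67, 13.08, 12.95, 12.87 and 12.96 on the banding arrays, against 11.64, 11.71, 11.29 and 11.48 on the sham arrays, and its lowest banding array lay almost 1 log2 unit above its highest sham array (1.38 ± 0.11, 2.59-fold higher, adjusted p = 0.000122). Myc, the growth factor-induced transcription factor, rose by 1.11 (adjusted p = 0.0186), with the highest values on banding 4 and banding 5, at 7.05 and 7.26, and missed the threshold without sham 1 (adjusted p = 0.051) and without sham 4 (adjusted p = 0.0534). Creb1, which binds the Ppargc1a promoter, rose by 0.54. Mef2a, a muscle factor that also binds that promoter, fell by 0.50 (adjusted p = 0.00594), and by 0.21 without passing when all its probe sets were averaged (adjusted p = 0.0591). Mef2c, of the same family, rose by 0.31 with overlapping groups (adjusted p = 0.0422), and Rela, a subunit of NF-kappa B, by 0.28, also with overlap (adjusted p = 0.0472). The Mef2c call was lost without any single one of banding 2, 3, 4 or 5 or sham 2, 3 or 4, and the Rela call without any single one of banding 1, 2, 3 or 4 or sham 1, 2 or 3. Fibroblast and macrophage markers were higher on the same banding arrays, and whether they had a part in the rises was not tested.

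Genes of fat storage, which PPAR gamma controls in fat cells, were examined beside Pparg. Lower calls were made for 10 of the 22 measured and higher calls for 2, and the remaining 10 were not called, with a median of -0.30. The 54.5% called lies between the 37.4% of all genes and the 60.4% of those not dim in both groups. Me1, malic enzyme, which supplies NADPH, measured 9.74, 9.87, 9.97, 9.96 and 10.02 in banding, against 11.05, 10.98, 11.09 and 10.97 in sham (-1.11 ± 0.06, adjusted p = 2.9e-05). Both groups were tight and lay about 1 log2 unit apart. Dgat2, which completes triglyceride synthesis, was 6.69-fold lower in banding (-2.74 ± 0.34, adjusted p = 0.0007), Pnpla2, the main triglyceride lipase, fell by 1.31, and Plin4, a lipid droplet protein, by 0.89. Fabp5, a fatty acid carrier also made by macrophages and endothelium, was 2.24-fold higher (1.17 ± 0.09, adjusted p = 0.000128), and Fabp4, a carrier of fat cells and capillary endothelium, rose by 0.27 with overlapping groups (adjusted p = 0.0262). The Fabp4 call was lost without banding 2, 3 or 4 or sham 2 or 4, and averaging its probe sets turned it to -0.16. Adipoq, the fat cell hormone adiponectin, measured 7.69, 6.87, 4.42, 3.39 and 6.82 in banding, against 3.97, 6.97, 3.98 and 4.65 in sham, a spread within both groups that exceeded the difference between them (0.95 ± 1.09, adjusted p = 0.595). The other 4 adipocyte markers measured, Cidec, Retn, Lep and Ucp1, were dim in both groups.

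Every called regulator had genes whose profile over the 9 arrays resembled its own more than those of the other regulators did. Likeness was the root mean square difference between profiles scaled to mean 0 and SD 1, over the 11013 genes not dim in both groups, and is a description, since the arrays share their groups. The closest gene was Mrpl47, a mitochondrial ribosomal protein, for Esrrg (0.0854), followed by Ccnh (0.0959) and Mrs2, a mitochondrial magnesium channel (0.0966). For Esrra it was Rab22a (0.0947), then Lipt2 (0.111) and Vldlr, the very low density lipoprotein receptor and a PPAR target (0.116). For Tfam it was D3Ertd751e (0.114), then Tecr (0.116) and Isca1 (0.122), and for Esrrb Polr1d (0.114), Gm5817 (0.154) and Ruvbl2 (0.154). Ppargc1a came nearest to Clasp1 (0.153), Epha4 (0.181) and Vdac1 (0.194), the outer membrane channel. Ppargc1b came nearest to Bcl11a (0.184), Gramd4 (0.192) and Grip2 (0.21), and Ppara to Gsn (0.196), Slc35a4 (0.197) and Ubr2 (0.197). Between regulators, Esrra and Esrrg were the most alike (0.259), and Pparg was the least like each of the 7.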

How the data were processed

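Affymetrix arrays, each with 1 labelled RNA, measured right ventricular RNA of 5 banding and 4 sham samples. The file deposited by the authors holds a log2 value for each probe set, on a scale that was already common to all arrays. RMA and GCRMA are named, without role or order, per the submitters' processing notes. Dim probe sets lay near a common floor of 2.198, so differences of dim genes are compressed. Values ran to 16.43, array medians lay between 3.23 and 3.31, and no value was normalised again. The percentage of probe sets within 0.01 of the lowest value was 35.01 ± 0.27 in banding and 33.63 ± 0.51 in sham (SD). This difference passed (exact permutation p = 0.00794, adjusted p = 0.0146), so the groups were not alike at the floor.

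Of 45101 probe sets, 64 control, 9160 unnamed and 932 naming several genes were left out. Banding was compared with sham by limma 3.58.1 (R 4.3.3; lmFit and eBayes, two-sided, no covariate) over the remaining 34945, with Benjamini-Hochberg adjustment over all of them and a threshold of 0.05. Differences are banding minus sham with the standard error. The probe set of highest mean across the 9 arrays stood for its gene. Where only 1 group was dim, its array values under the dim level of 4.198 were raised to that level. The called fold computed from them is given as "at least". The fit was tested on simulated data. Marker means and quality measures were compared by an exact permutation test (126 splits, two-sided), with adjustment over them together. Promoters came from RefSeq (GRCm38.p6). Python 3.11.15, pandas 2.3.3 and matplotlib 3.10.9 were used for tables and figures.

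The regulators, the 6 pathway lists and the marker lists were chosen with earlier results of these data known. Some listed genes are not reported here. Genes named were all regulators, up to 5 called genes of each list with the smallest p, every called gene against its list's majority, a set of fixed genes, and the 3 genes most like each called regulator. Rxrb, Mdh2, Uqcrc1, Opa1, Ogdh, Alb, Ttr, Apoa1, the uncalled PPAR targets and the dim adipocyte markers were named after their values were seen. Alternatives were 1 probe set per gene, the mean of a gene's probe sets, dropping probe sets that may cross-hybridise, a filter or a floor on dim values, quantile normalisation again, centring on array medians, a trended robust fit, the hepatocyte or cardiomyocyte marker mean as a covariate, the replicate number as a block, and leaving out arrays. Values relative to the cardiomyocyte marker mean were added after seeing the data.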

Additional observations from a re-analysis of the deposited data

Results flagged for a closer look

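A sample was looked at again where its gap to the nearest other of its group made up most of the group's range, by Dixon's 95% limit. Of 52 groups tested, 6 held such a sample, and chance alone picks about 1 in 20. Among the regulators, Ppargc1a at 1434099_at was 10.46 on sham 1, against 10.15 to 10.20 on the other sham arrays. Ppard at 1439797_at was 4.94 on banding 5, against 5.29 to 5.39 on the other banding arrays. The others among the regulators lay under the dim level, namely Esrra at 1442864_at, 4.05 on banding 3 against 3.91 on the other banding arrays, and Esrrg at 1457896_at, 3.71 on banding 4 against 4.01 to 4.07. Of the marker means, that of endothelium was 9.24 on banding 5, against 9.67 to 9.78 on the other banding arrays. The hepatocyte marker mean was 4.71 on banding 5, against 2.68 to 2.75 on the other banding arrays, and Alb, Ttr and Apoa1 stood there at 8.51, 7.75 and 5.25.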

How the results depend on the processing

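The 7 lower regulators kept their direction under every alternative except the cardiomyocyte marker mean as a covariate, under which Ppargc1a was 0.19 and Ppara 0.26, 2 further Ppargc1a probe sets were 0.05 and 0.17 and a Ppara one 0.18, and Ppargc1b was -0.31, Esrra -0.78, Esrrb -0.25, Esrrg -0.52 and Tfam -0.04, none called. That fit called 602 probe sets in all, 0 of the regulators' probe sets, 0 of their genes and 0 of every list except fat storage, with 1. With the hepatocyte marker mean as a covariate 1038 probe sets were called in all, 1 of the regulators', 1 regulator, 0 PPAR targets, 0 ERR and PGC-1 targets, 3 genes of mitochondrial DNA maintenance, 0 partners, 1 upstream regulator and 1 fat storage gene. Ppargc1a was then -2.22, Ppargc1b -1.73, Ppara -1.20, Esrrb -3.45, Esrrg -1.42 and Tfam -0.84, none called, and Pparg turned to -0.65. Both marker means differ between the groups, so each covariate leaves less of the group difference to test. Ppara also lost its call without sham 1, sham 4 or banding 4, and without sham 4 and banding 5 together (-0.85). It kept the call when any other single array was left out. Over all single omissions it ran from -1.36 to -0.98 (limma's adjusted p = 0.0076 to 0.0579). Ppard passed after a further quantile normalisation (-0.47). Relative to the cardiomyocyte marker mean 26951 of the 34945 probe sets were called and Pparg passed at 0.35. Leaving out 1 array at a time gave 6 to 7 called regulators.

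Same-numbered banding and sham arrays correlated at 0.0264, -0.0336, -0.0397 and -0.0117 in their deviations from the group means. Differently numbered arrays correlated at -0.1 to 0.121, so the replicate numbers show no pairing here. Such weak correlations cannot exclude one. With the replicate number as a block 7406 probe sets were called, 6 regulators, 15 ERR and PGC-1 targets and 14 upstream regulators, and Ppara was -0.98 (adjusted p = 0.116).

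For 54 named list genes, 1187 values over 22 alternatives gave 1027 with the direction and call of the report, 129 that lost the call, 8 that gained it and 23 that turned. Those that turned were Sirt1, 0 after quantile normalisation, 0.10 and 0.13 with the hepatocyte and the cardiomyocyte covariate, 0.02 with the block, -0.07 to 0.05 without single arrays, 0.03 without sham 4 and banding 5 and 0.23 relative to the cardiomyocyte marker mean; Angptl4, -2.49 with the hepatocyte covariate, -0.19 to 0.37 without single arrays and 0 without sham 4 and banding 5; Fabp4, -0.16 as the mean of its probe sets and -0.18 with the hepatocyte covariate; Gabpa, 0.27 with that covariate and 0.16 relative to the cardiomyocyte marker mean; and Atp5b, 0.12 with the cardiomyocyte covariate and 0.09 relative to that mean. The causes were not tested. Dim probe sets, among them 3 of the 4 for Nrf1, limit what can be said of low transcripts.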
